A study of Mus musculus with 6 samples.

Results

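ADP-ribosyltransferases of the PARP family were followed in bone marrow-derived mesenchymal stromal cells (MSCs), together with Dtx3l, the ubiquitin ligase that works as a complex with Parp9. The 10 genes were taken by symbol from a table of read counts that lists 23420 genes: Parp1, Parp2 and Parp3 as DNA repair members, Parp9, Parp10, Parp12, Parp14 and Dtx3l as interferon-inducible members, and Parp4 and Parp8 as other members. The symbols were chosen for what the genes are, without using measured values, although earlier results of these data were known by then. All 10 had reads in all 6 libraries and passed the filter on low counts.

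PARP enzymes move ADP-ribose from NAD onto proteins or nucleic acids. Parp1, Parp2 and Parp3 sit on DNA breaks, where the chains made by Parp1 and Parp2 recruit repair factors. Another branch, to which Parp9, Parp10, Parp12 and Parp14 belong, mostly attaches single ADP-ribose units or binds them, and is transcribed in response to interferon through factors that include Stat2 and Irf9. MSCs are stromal cells of the marrow that respond to interferon gamma by presenting antigen.

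Of the 6 RNA-seq libraries, 3 are labelled control and are called Ctl MSC here, and 3 are labelled as transduced with Tpr and are called MSC-TPr. Per the methods of the study, the MSCs came from femurs of young female C57BL/6 mice, MSC-TPr carried the AP2 retroviral construct with the thymoproteasome subunits β1i (Psmb9), β2i (Psmb10) and β5t (Psmb11) joined by viral self-cleaving peptide sequences, and Ctl MSC carried the empty AP2 backbone. Both backbones hold eGFP as a marker, the promoter of the construct is not named in the sources used here, and no interferon treatment is listed for these libraries, which were grown in AMEM with serum. Nothing states that the 3 libraries of a label came from separate cultures or mice, so p-values measure the spread between these libraries, which may be technical. Libraries held 16158756 to 22158887 reads on genes, and 3 reads, the least amount taken as detectable, correspond to 0.139 to 0.181 CPM (read counts relative to the library total, scaled by edgeR's TMM factors). These limits cover counting error only.

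Some libraries stand apart from the others of their label. Averaged over 15 cell division genes, log2 CPM was 6.62, 3.31 and 3.29 in Ctl MSC 1, 2 and 3, against 3.35, 6.53 and 6.65 in MSC-TPr 1, 2 and 3, so that on this measure Ctl MSC 1 lay beside MSC-TPr 2 and 3. Of the genes carried by the construct, Psmb11 measured 0.110 to 0.214 CPM in Ctl MSC, against 0.0464 to 0.355 CPM in MSC-TPr, Psmb10 8.38 to 27.8 CPM and 8.97 to 17.3 CPM, and Psmb9 0.801 to 3.38 CPM and 0.554 to 1.24 CPM. Library by library, Psmb10 was at 27.8, 8.81 and 8.38 CPM in Ctl MSC 1, 2 and 3 and at 8.97, 17.3 and 15.2 CPM in MSC-TPr 1, 2 and 3. It was called as higher in MSC-TPr over the libraries numbered 2 and 3 (log2 fold change 0.92, edgeR adjusted p = 0.00547) and was lower by 1.58 on the log2 scale in MSC-TPr 1 than in Ctl MSC 1. Of the first 2 principal components, PC1 (58.5% of the variance) put Ctl MSC 1 with MSC-TPr 2 and 3, as the cell division genes did, whereas PC2 (28.3%) separated the labels, with -48.9, -20.4 and -19.6 for Ctl MSC, against 49.1, 24.2 and 15.6 for MSC-TPr. Psmb11 had only 1 to 6 reads in each of the 6 libraries, around the 3 reads taken as detectable. The transduced genes thus gave no check of the labels, and whether the labels of the libraries numbered 1 were exchanged was not tested. An exchange would alter each value over 6 libraries but none over the libraries numbered 2 and 3. Each direction given here is one between library labels, and the main results are given over both choices of libraries. As for cell identity, the MSC markers Eng and Cd44 were at 142 to 204 CPM and 142 to 536 CPM, whereas Thy1, which encodes CD90, had 1 read in a single library and Lepr was at 0.441 to 2.13 CPM. Nt5e, which encodes CD73, was at 11.4, 20.2 and 17.4 CPM in Ctl MSC, against 2.66, 4.2 and 5.24 CPM in MSC-TPr, without overlap (log2 fold change -2.02, edgeR adjusted p = 0.0790, DESeq2 adjusted p = 2.04e-05). Of the other markers on the list of 9, Cxcl12 ran from 67.9 CPM in MSC-TPr 1 to 1408 CPM in Ctl MSC 1, and Ly6a, Pdgfra and Pdgfrb had reads throughout with overlapping groups. Whether these marker differences had a part in the results was not tested. The 8 haematopoietic and macrophage markers summed to 11.3 to 14.6 CPM in Ctl MSC, against 12.9 to 17.5 CPM in MSC-TPr, mostly Cd68 and Cd14, with Emr1 (F4/80) at 0 reads and Ptprc (CD45) at 2 reads in all. In bulk RNA, fewer cells that express a gene and less RNA per cell cannot be told apart.

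Promoter sequence was examined first, because the interferon-inducible members are grouped by a response that acts through DNA elements. RefSeq windows (build GRCm38.p6, the same assembly as mm10) of 300 bases, from 250 before to 50 after a transcription start, were at hand for Parp1, Parp2, Parp3, Parp4, Parp8, Parp12 and Dtx3l, 7 of the 10 genes, and Parp9, Parp10 and Parp14 were not matched. The windows were searched on both strands for the core of the interferon-stimulated response element (GAAA, any 2 bases, GAAA) and for the gamma-activated site (TTC, any 3 bases, GAA). Across all 32851 windows of that table, 3.44% held the first motif and 8.3% the second. Among the 7 genes, the Parp4 window alone held the response element core, as a pair of overlapping matches that begin 150 and 144 bases before the start, and the gamma-activated site was found in none. These letters were thus not in the windows of Parp12 and Dtx3l, which is a statement about these windows and not about the factors.

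Upstream stretches outside exons of protein-coding genes are shown for 1 gene of the repair branch, for 2 interferon-inducible genes and for Parp4, 5′ to 3′ on the strand of the gene. Capitals mark bases of a match to the response element core. The Parp1 stretch is chr1:180568641-180568890 (plus strand), that of Parp12 is chr6:39118350-39118599 (minus strand), that of Dtx3l is chr16:35939207-35939277 (minus strand), and that of Parp4 is chr14:56575426-56575618 (plus strand).
Parp1: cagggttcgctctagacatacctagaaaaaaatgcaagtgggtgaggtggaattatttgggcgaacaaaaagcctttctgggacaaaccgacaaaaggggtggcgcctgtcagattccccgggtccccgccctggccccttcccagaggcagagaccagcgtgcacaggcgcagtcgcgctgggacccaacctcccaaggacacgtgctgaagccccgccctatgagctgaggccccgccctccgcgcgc
Parp12: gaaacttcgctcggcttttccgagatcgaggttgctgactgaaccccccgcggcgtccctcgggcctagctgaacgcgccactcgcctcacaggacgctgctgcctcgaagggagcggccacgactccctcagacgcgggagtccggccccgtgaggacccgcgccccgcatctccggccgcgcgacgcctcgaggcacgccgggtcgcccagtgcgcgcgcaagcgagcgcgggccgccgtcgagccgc
Dtx3l: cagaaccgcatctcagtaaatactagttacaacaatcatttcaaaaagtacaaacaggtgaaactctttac
Parp4: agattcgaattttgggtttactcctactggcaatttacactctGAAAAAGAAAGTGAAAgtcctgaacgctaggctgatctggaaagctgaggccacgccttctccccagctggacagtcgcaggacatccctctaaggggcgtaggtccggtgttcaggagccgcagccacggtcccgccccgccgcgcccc
The Dtx3l stretch is short, with 71 bases, because the window runs into exons of Dtx3l and of Parp9, which starts on the opposite strand. Over the whole 250 bases before the start, the GC content was 61.6% for Parp1, 73.6% for Parp12, 52.8% for Dtx3l and 54.4% for Parp4.

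MSC-TPr were compared with Ctl MSC to find the genes that differ between the library labels. A gene was called where the adjusted p of edgeR's quasi-likelihood test lay under 0.05 after Benjamini-Hochberg correction across the 11974 genes tested and its log2 fold change reached 0.5 in either direction. Over all 6 libraries 0 of the 10 genes were called, beside 51 of all genes tested (0.426%, with 0.401% lower and 0.0251% higher in MSC-TPr). At an unadjusted p under 0.05, 4 of the 10 were lower in MSC-TPr (Parp9, Parp12, Parp14 and Dtx3l) and 0 higher, against 8.23% of all genes lower and 6.81% higher. The same 4 genes, and no other of the 10, had every MSC-TPr library below every Ctl MSC library, a pattern found in 12.1% of all genes tested (10.6% had the opposite one, 22.6% either). DESeq2, run as an alternative on the same libraries, called 3 of the 10, Parp12, Parp14 and Dtx3l, all as lower (it called 5.28% of the genes it tested, 3.39% as lower and 1.89% as higher). The median log2 fold change was -1.50 over the 5 interferon-inducible members, -0.15 over the 3 DNA repair members and 0.01 over all genes tested.

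**Figure D1:**
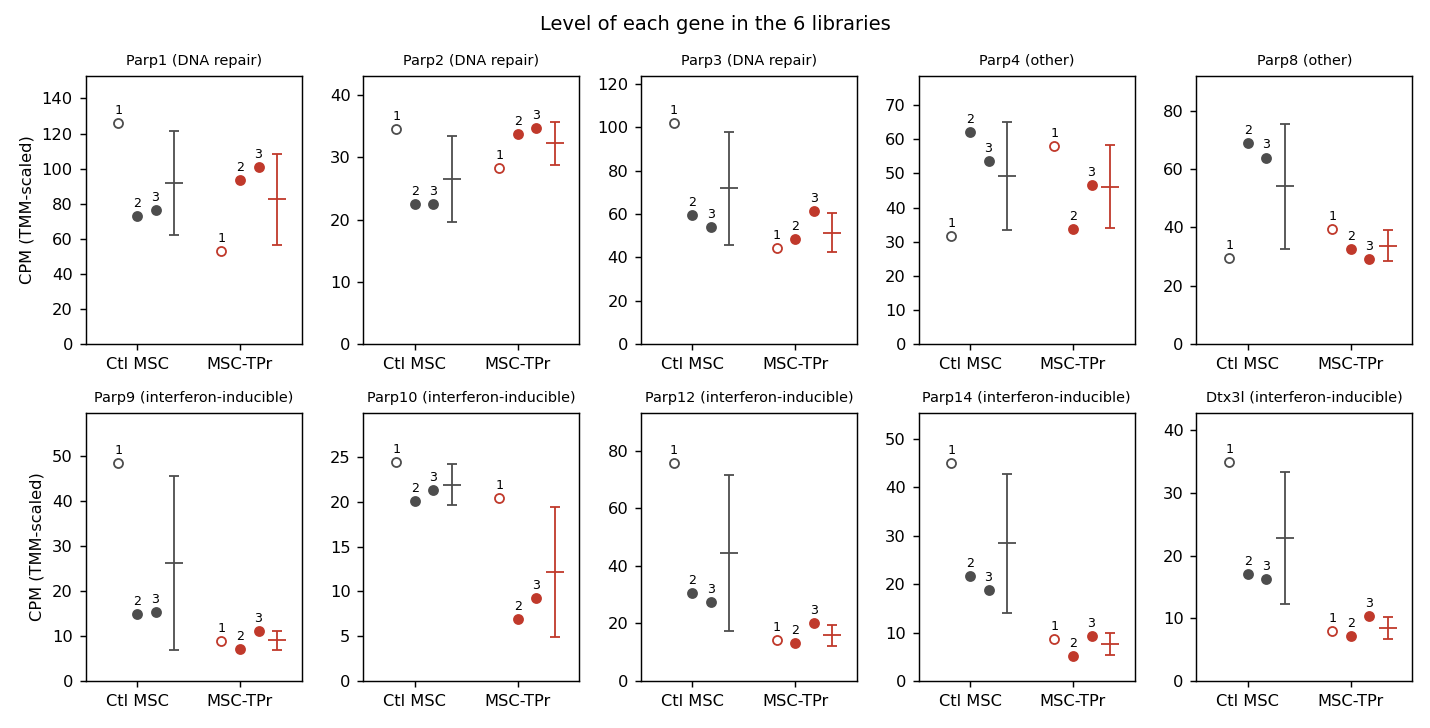
Level of each of the 10 genes in CPM (vertical axis, from 0) in the 3 Ctl MSC and 3 MSC-TPr libraries; points carry the replicate number, open points are the libraries numbered 1, and the bar beside each group is its mean ± SD (n = 3). Parp9, Parp12, Parp14 and Dtx3l show all MSC-TPr libraries below all Ctl MSC libraries, with Ctl MSC 1 far above the rest.

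Parp14, a macrodomain-bearing mono-ADP-ribosyltransferase, differed most between the labels (ENSMUSG00000034422.14, chromosome 16 of mm10 from 35832874 to 35871544, minus strand). It measured 45.01, 21.6 and 18.8 CPM in Ctl MSC 1, 2 and 3, against 8.69, 5.09 and 9.32 CPM in MSC-TPr 1, 2 and 3. The lowest Ctl MSC library thus stood well above the highest MSC-TPr library. The means were 28.5 ± 14.4 CPM and 7.70 ± 2.29 CPM (SD, n = 3 each). The log2 fold change of Parp14 was -1.88 (SE 0.421), that is 3.69-fold lower, with an edgeR adjusted p of 0.136 and a DESeq2 adjusted p of 0.00158. Without the libraries numbered 1 it fell by 1.47 on the log2 scale (SE 0.282, edgeR adjusted p = 0.00854).

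Dtx3l and Parp9 lie head to head on chromosome 16, Dtx3l (ENSMUSG00000049502.17) from 35926511 to 35939151 on the minus strand and Parp9 (ENSMUSG00000022906.15) from 35938470 to 35972605 on the plus strand. Their exons overlap by 458 bases, and whether the counting used the strand is not stated, so reads from that stretch are uncertain for both. Dtx3l measured 34.9, 17.0 and 16.3 CPM in Ctl MSC, against 7.92, 7.10 and 10.4 CPM in MSC-TPr, and Parp9, which binds ADP-ribose and has little transferase activity by itself, measured 48.6, 14.95 and 15.3 CPM and 8.86, 7.04 and 11.2 CPM. In both genes Ctl MSC 1 was the highest library, and Ctl MSC 2 and 3 lay above each MSC-TPr library. The log2 fold change was -1.42 for Dtx3l (SE 0.361, edgeR adjusted p = 0.176, DESeq2 adjusted p = 0.0128) and -1.54 for Parp9 (SE 0.517, edgeR adjusted p = 0.249, DESeq2 adjusted p = 0.0653). Without the libraries numbered 1, Dtx3l fell by 0.92 (SE 0.211, edgeR adjusted p = 0.0159) and Parp9 by 0.72 (SE 0.235, edgeR adjusted p = 0.0488).

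Parp12, a zinc finger mono-ADP-ribosyltransferase that restrains viral replication, is on another chromosome (ENSMUSG00000038507.6, chromosome 6 from 39086410 to 39118349, minus strand). It measured 75.8, 30.6 and 27.3 CPM in Ctl MSC, against 14.2, 13.1 and 20.1 CPM in MSC-TPr, with no overlap between the groups. The means were 44.6 ± 27.1 CPM and 15.8 ± 3.77 CPM (SD, n = 3 each), and the log2 fold change was -1.50 (SE 0.439, edgeR adjusted p = 0.208, DESeq2 adjusted p = 0.0319). It fell by 0.80 without the libraries numbered 1 (SE 0.217, edgeR adjusted p = 0.0279).

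Parp10, a mono-ADP-ribosyltransferase with ubiquitin-binding motifs, followed another pattern (ENSMUSG00000063268.12, chromosome 15 from 76231174 to 76243441, minus strand). It measured 24.4, 20.03 and 21.3 CPM in Ctl MSC but 20.4 CPM in MSC-TPr 1, against 6.86 and 9.23 CPM in MSC-TPr 2 and 3. MSC-TPr 1 thus lay within the Ctl MSC range, and the groups overlapped. The log2 fold change was -0.85 over all 6 libraries (SE 0.413, edgeR adjusted p = 0.393) and -1.35 over the libraries numbered 2 and 3, where Parp10 fell (SE 0.185, edgeR adjusted p = 0.00272). Because 205 bases of its exons are also annotated to Plec, in the same orientation, the Parp10 count is uncertain, although the coding transcripts of the basic annotation set share 0 bases. Plec, a cytoskeletal linker, measured 267 to 478 CPM in Ctl MSC, against 323 to 671 CPM in MSC-TPr. The study named Parp10 from these same libraries, so its direction is not independent evidence.

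How much of the difference rested on Ctl MSC 1 was examined by leaving it out. The median log2 fold change of the interferon-inducible members then went from -1.50 to -0.87, and those of Parp9, Parp12, Parp14 and Dtx3l became -0.74, -0.87, -1.39 and -0.97 (edgeR adjusted p from 0.105 to 0.179), with 0 of the 10 genes called and 0.886% of all genes. Ctl MSC 1 was the highest of all 6 libraries in 7 of the 10 genes, which was so for 21.6% of all genes tested. Without MSC-TPr 1, the log2 fold change of Parp10 was -1.44, while the other interferon-inducible members ran from -1.98 to -1.37, again with 0 of the 10 called (0.359% of all genes). Leaving out Ctl MSC 2, Ctl MSC 3 or MSC-TPr 3 called 0% of all genes and leaving out MSC-TPr 2 0.00818%. The libraries numbered 1, taken alone, differed by -2.39 for Parp9, -2.38 for Parp12, -2.31 for Parp14, -2.07 for Dtx3l and -0.25 for Parp10 (log2 ratio of MSC-TPr 1 to Ctl MSC 1, after adding 0.5 CPM), with no replicate check. Of the 10 genes, 6 were lower by at least 0.5 in this pair, where 27.2% of all genes tested were, and 1, Parp4, was higher by as much, where 24.2% were.

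**Figure D2:**
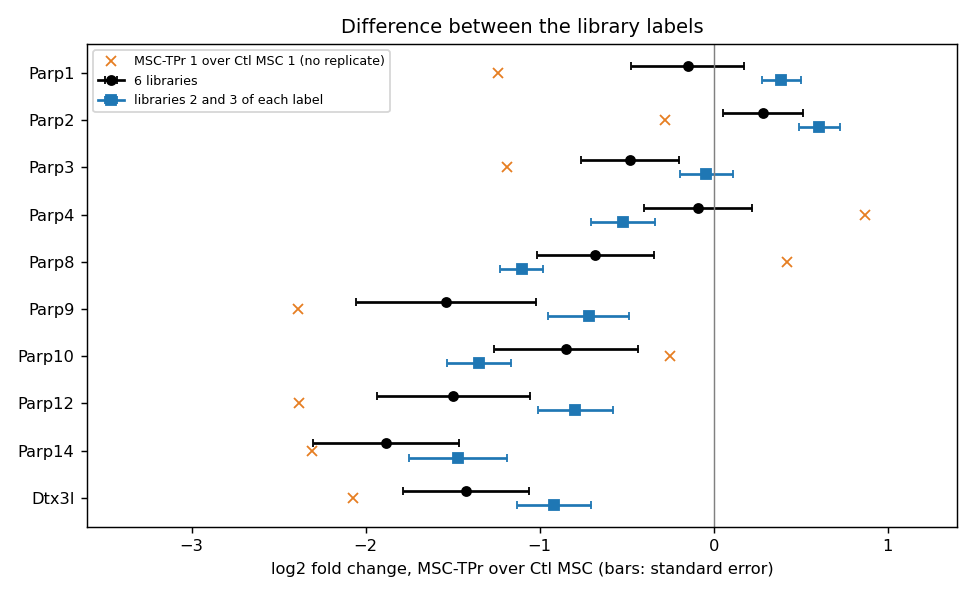
log2 fold change of each gene, MSC-TPr over Ctl MSC (horizontal axis), from all 6 libraries (black, bars: SE), from the libraries numbered 2 and 3 (blue squares, bars: SE) and as the ratio of the single libraries numbered 1 (orange crosses, no error). Parp3, Parp9, Parp10, Parp12, Parp14 and Dtx3l lie below 0 in each of the 3 sets, whereas Parp1, Parp2, Parp4 and Parp8 lie on either side of 0. Parp3 is at -0.04 in the libraries numbered 2 and 3, and Parp10 at -0.25 in the libraries numbered 1.

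Over the libraries numbered 2 and 3, 7 of the 10 genes were called by edgeR, 6 as lower (Parp8, Parp9, Parp10, Parp12, Parp14 and Dtx3l) and 1, Parp2, as higher. Of all 12122 genes tested there, 40% were called, with 19.4% lower and 20.6% higher, so a called gene was common in this choice of libraries. DESeq2 on the same 4 libraries called 7 as lower, with Parp4 added, and Parp2 as higher, beside 16.6% and 18.6% of all genes (35.2% in all). By edgeR, the median log2 fold change of the 5 interferon-inducible members in these libraries was -0.92, beside 0.39 for the 3 DNA repair members and 0 for all genes.

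Over all 6 libraries none of the 3 DNA repair members passed the test, and in each the groups overlapped. Parp1, the main producer of poly(ADP-ribose) after DNA damage (ENSMUSG00000026496.11, chromosome 1 from 180568924 to 180601254, plus strand), measured 126, 72.8 and 76.5 CPM in Ctl MSC, against 53.1, 93.7 and 101 CPM in MSC-TPr. It was thus highest in Ctl MSC 1 and MSC-TPr 3 and lowest in MSC-TPr 1, and the groups overlapped, with means of 91.7 ± 29.6 CPM and 82.7 ± 25.9 CPM (SD, n = 3 each). The log2 fold change was -0.15 over all 6 libraries (SE 0.323, edgeR adjusted p = 0.863) and 0.39 over the libraries numbered 2 and 3 (SE 0.113, edgeR adjusted p = 0.0340), so its sign depended on the libraries used and its size stayed under the fold threshold.

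Parp2, which shares with Parp1 the making of chains at breaks (ENSMUSG00000036023.6, chromosome 14 from 50807841 to 50821301, plus strand), measured 34.5, 22.5 and 22.4 CPM in Ctl MSC, against 28.2, 33.7 and 34.7 CPM in MSC-TPr. Ctl MSC 1 stood with MSC-TPr 2 and 3. The log2 fold change was 0.28 (SE 0.228, edgeR adjusted p = 0.612), and over the libraries numbered 2 and 3 Parp2 rose by 0.61 (SE 0.117, edgeR adjusted p = 0.00856), while MSC-TPr 1 was lower than Ctl MSC 1 by 0.28 on the log2 scale. Parp3, which acts in double-strand break repair (ENSMUSG00000023249.15, chromosome 9 from 106470322 to 106476949, minus strand), measured 102, 59.4 and 54.1 CPM and 44.3, 48.3 and 61.5 CPM. Apart from Ctl MSC 1 its libraries lay close together, and the log2 fold change was -0.48 (SE 0.282, edgeR adjusted p = 0.480), or -0.04 over the libraries numbered 2 and 3 (SE 0.152, edgeR adjusted p = 0.831). Its annotated exons overlap those of Rrp9 by 20 bases on the opposite strand.

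Parp4 and Parp8 had their 3 lowest values in Ctl MSC 1 and MSC-TPr 2 and 3, the libraries in which cell division genes were high. Parp4, the PARP of the vault ribonucleoprotein particle (ENSMUSG00000054509.7, chromosome 14 from 56575619 to 56659794, plus strand), measured 31.6, 62.2 and 53.7 CPM in Ctl MSC, against 58.0, 33.7 and 46.7 CPM in MSC-TPr. Its log2 fold change was -0.09 (SE 0.311, edgeR adjusted p = 0.915) over all 6 libraries and -0.52 over the libraries numbered 2 and 3 (SE 0.184, edgeR adjusted p = 0.0605). Parp8, a mono-ADP-ribosyltransferase (ENSMUSG00000021725.9, chromosome 13 from 116854820 to 117025537, minus strand), measured 29.4, 68.8 and 63.9 CPM and 39.5, 32.5 and 29.2 CPM. Ctl MSC 2 and 3 stood above the other 4 libraries, and the log2 fold change was -0.68 (SE 0.335, edgeR adjusted p = 0.399), with a fall of 1.10 over the libraries numbered 2 and 3 (SE 0.124, edgeR adjusted p = 0.00141). Whether cell division had a part in the values of Parp1, Parp2, Parp4 and Parp8 was not tested.

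Interferon-inducible and DNA repair members were set against each other within each library. The mean log2 CPM of the 5 interferon-inducible members was 5.43, 4.37 and 4.31 in Ctl MSC, against 3.55, 2.99 and 3.59 in MSC-TPr, and that of the 3 DNA repair members was 6.26, 5.54 and 5.52 and 5.36, 5.75 and 5.92. The first minus the second gave -0.83, -1.17 and -1.21 in Ctl MSC, against -1.81, -2.76 and -2.33 in MSC-TPr. This is a difference of mean log2 CPM, taken after adding 0.5 CPM and not scaled to length. On this measure the groups did not overlap. Of the 5 interferon-inducible members, 4 had this pattern by themselves, so the measure adds no separate evidence. No p is attached since the lists were chosen with results known, and whether cell division had a part in the measure was not tested.

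**Figure D3:**
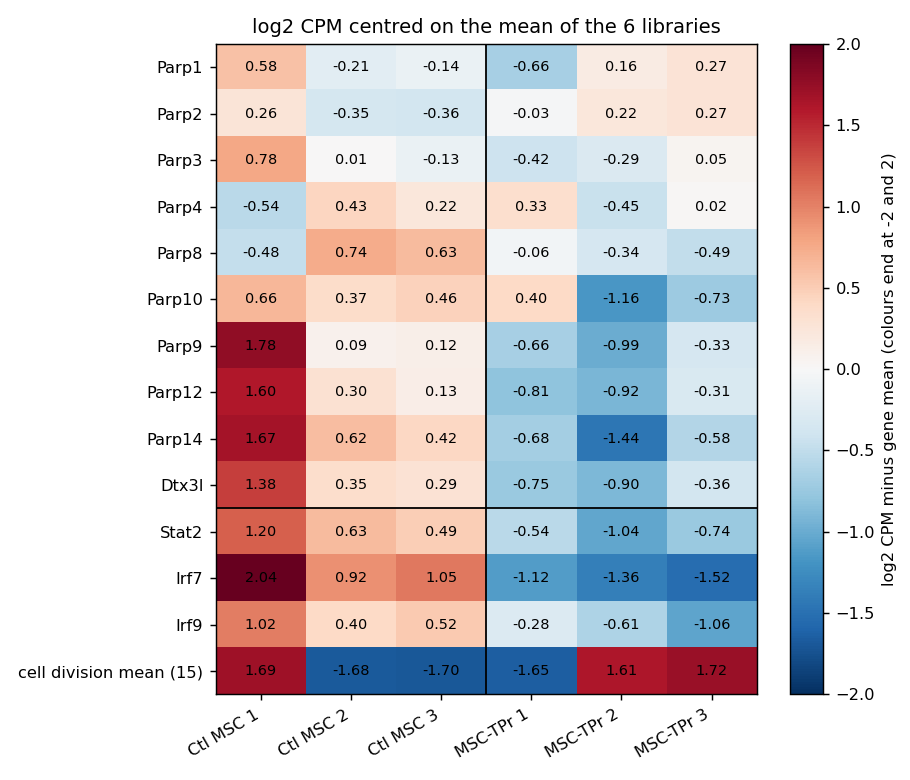
log2 CPM of the 10 genes, of 3 interferon signalling factors and of the mean of 15 cell division genes (rows), each centred on its mean over the 6 libraries (columns); red is above and blue below the mean, with the value in each cell. Parp9, Parp12, Parp14, Dtx3l and the 3 factors are above their mean in all Ctl MSC libraries and below it in all MSC-TPr libraries. The cell division mean is high in Ctl MSC 1 and in MSC-TPr 2 and 3. The 3 factors shown are those with the largest falls among the 11 reported. Irf1, Jak1, Jak2, Tyk2, Ifnar2 and Ifngr2, not shown, had overlapping groups.

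Likeness of profiles was measured as the root mean square difference of centred log2 CPM over the 6 libraries, among genes with a mean log2 CPM of at least 1. It is a description, since the libraries fall into clusters. Of 10822 other genes, the one nearest to Parp12 was Dtx3l (0.117), and Parp9 was among the next (0.130). Near to Parp9 were Parp12 (0.130), Rassf2 (0.174) and Dtx3l (0.213). Parp9, Parp12 and Dtx3l thus ran close together although Parp12 is on another chromosome. Parp14 was nearest to Maf (0.154), Mndal (0.184) and Ddx58 (0.228), and held Dtx3l at rank 10 (0.297). Parp10 was farther from each of the other interferon-inducible members (0.588 to 0.680), with Tmem140, Enpp4 and Abca1 as its nearest genes (0.166 to 0.188).

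**Figure D4:**
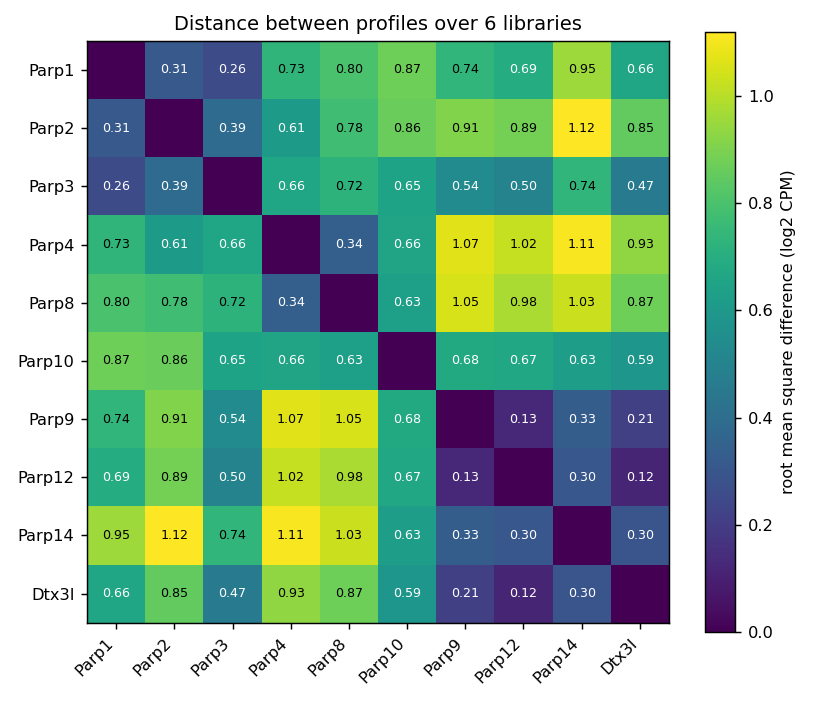
Root mean square difference between the centred log2 CPM profiles of each pair of the 10 genes over 6 libraries (colour and printed value; smaller is more alike). Parp9, Parp12, Parp14 and Dtx3l are within 0.331 of one another, Parp1, Parp2 and Parp3 within 0.391, and Parp4 and Parp8 at 0.341.

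Parp14, Dtx3l and Parp9 are neighbours on chromosome 16, so their values were set beside those of the protein-coding genes around them. Hspbap1, which lies 4397 bases from Parp14, measured 12.2 to 12.6 CPM in Ctl MSC, against 14.8 to 19.4 CPM in MSC-TPr (log2 fold change 0.40, edgeR adjusted p = 0.392). Kpna1, an importin that lies 6145 bases from Parp9, measured 84.7 to 88.8 CPM and 88.8 to 111 CPM (log2 fold change 0.23, edgeR adjusted p = 0.506). Neither shared the direction of the 3 genes between them, nor did Ccdc58 (0.37) or Fam162a (0.12), whereas Dirc2 (-0.26) and Wdr5b (-0.98) had negative values, with edgeR adjusted p from 0.362 to 0.919 over these 4. Over the libraries numbered 2 and 3, Fam162a was called as higher (0.90, edgeR adjusted p = 0.00461) and Dirc2 as lower (-0.90, edgeR adjusted p = 0.00246), and the other 4 were not called. In that choice of libraries 20.6% of all genes were called as higher and 19.4% as lower. These genes were picked by position after the values of the 3 genes were known.

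Levels between genes were compared as CPM per kb of exons (union of coding transcripts in GENCODE M21). In Ctl MSC the medians were 20.1 for Parp8, 19.7 for Parp1, 18.2 for Parp3, 11.9 for Parp2, 9.47 for Parp12, 8.40 for Parp4, 6.28 for Parp10, 4.31 for Parp9, 2.98 for Dtx3l and 2.91 for Parp14. Ranges over the 3 Ctl MSC libraries overlapped between every gene and the next in this order. The genes share their libraries, and within each of the 3 libraries Parp1 was above Parp3, Parp3 above Parp2, Parp9 above Dtx3l and Dtx3l above Parp14, while the order of the other 5 neighbouring pairs differed between libraries. In MSC-TPr the order was Parp1 (24.2), Parp2 (17.8), Parp3 (14.8), Parp8 (10.2), Parp4 (7.31), Parp12 (4.39), Parp10 (2.72), Parp9 (2.5), Dtx3l (1.38) and Parp14 (1.17). In MSC-TPr each interferon-inducible member stayed at or below 6.22 in each library, while Parp1, Parp2, Parp3 and Parp8 stayed at or above 9.16.

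**Figure D5:**
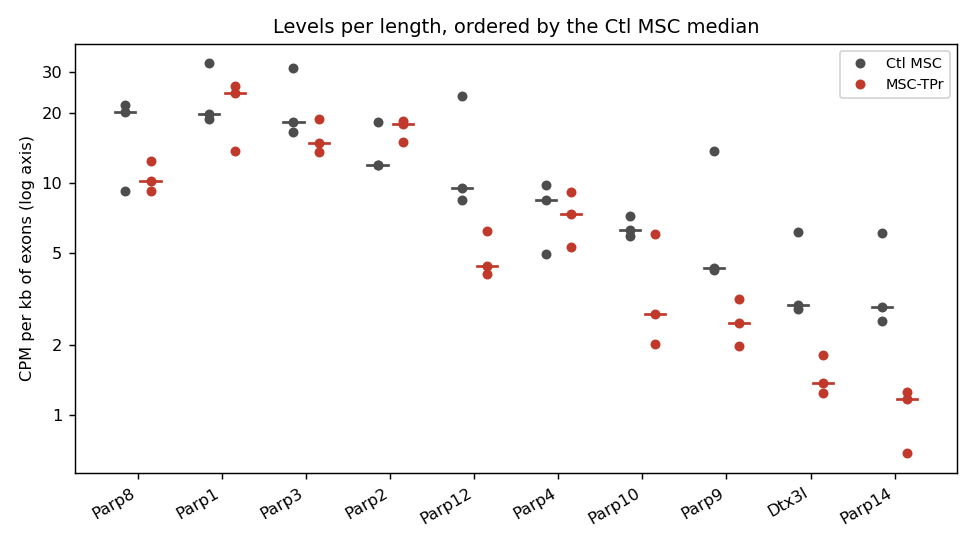
Level of each gene per exon length in CPM per kb (vertical log axis), ordered by the Ctl MSC median; points are libraries and bars are medians of 3 libraries per label. Parp14 and Dtx3l have the lowest medians under both labels, at 2.91 and 2.98 in Ctl MSC, against 1.17 and 1.38 in MSC-TPr.

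The rest of the family was taken from a list of 7 genes, and 0 of the 7 were called over all 6 libraries, with a median log2 fold change of -0.21. Tnks and Tnks2, the tankyrases that modify axin and telomere proteins, and Zc3hav1, the antiviral zinc finger protein also known as PARP13, had log2 fold changes of 0.10, -0.17 and -0.005. Parp16, a transferase of the endoplasmic reticulum membrane, measured 3.31 to 6.53 CPM in Ctl MSC, against 1.22 to 4.5 CPM in MSC-TPr (-0.60, edgeR adjusted p = 0.644). Parp6 measured 20.97 to 39.9 CPM and 17.7 to 40.5 CPM (-0.40, edgeR adjusted p = 0.706). Parp11 was the one gene of the list whose groups did not overlap, with 19.6 to 22.8 CPM and 15.5 to 17.0 CPM (-0.39, SE 0.168, edgeR adjusted p = 0.338). Of all genes tested, 12.1% were lower in MSC-TPr without overlap. Tiparp, a target of the aryl hydrocarbon receptor, gave -0.21. Over the libraries numbered 2 and 3, Parp6 was called as lower by edgeR and the other 6 were not called, where 19.4% of all genes were called as lower.

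Interferon signalling factors were examined because the response to interferon is transcribed through factors of this kind. Whether they had a part in the values of the interferon-inducible members was not tested. Of 11 genes, 0 were called over all 6 libraries, 4 had an unadjusted p under 0.05 as lower and 0 as higher, 5 had MSC-TPr below Ctl MSC without overlap, and the median log2 fold change was -0.33. Of all genes tested, 8.23% were lower at that p and 12.1% were lower without overlap. Irf7, an interferon-induced amplifier of the response, measured 8.76 to 19.2 CPM in Ctl MSC, against 1.53 to 2.05 CPM in MSC-TPr (-2.82, SE 0.386, edgeR adjusted p = 0.0504, DESeq2 adjusted p = 1.53e-08). Stat2 measured 50.7 to 82.8 CPM and 17.5 to 24.8 CPM (-1.57, SE 0.249, edgeR adjusted p = 0.0731, DESeq2 adjusted p = 2.00e-05), and Irf9 37.9 to 58.4 CPM and 13.7 to 23.6 CPM (-1.29, SE 0.273, edgeR adjusted p = 0.121, DESeq2 adjusted p = 0.00304). In Irf1 the groups overlapped, with 21.5 to 60.1 CPM and 14.5 to 25.4 CPM (-0.75, SE 0.465, edgeR adjusted p = 0.503). Of the receptor chains, Ifnar1 measured 59.8 to 80.4 CPM and 41.3 to 56.3 CPM (-0.50, SE 0.194, edgeR adjusted p = 0.297) and Ifngr1 51.5 to 56.3 CPM and 39.1 to 45.4 CPM (-0.33, edgeR adjusted p = 0.334), both without overlap, while Ifnar2 gave -0.004 and Ifngr2 0.22 with overlap. The kinases Jak1 and Jak2 had log2 fold changes of -0.14 and -0.11. Without the libraries numbered 1, 5 of the 11 were called as lower, among them Ifnar1 (-0.68) and Jak2 (-0.70), and 0 as higher, beside 19.4% and 20.6% of all genes.

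Among 13 genes that remove or read ADP-ribose, 12 were tested and 0 called, with a median of -0.11. Macrod1, a hydrolase of single ADP-ribose units, measured 15.3, 23.6 and 26.7 CPM in Ctl MSC, against 14.6, 6.21 and 9.74 CPM in MSC-TPr, without overlap by a narrow margin (-1.10, SE 0.371, edgeR adjusted p = 0.248). Nudt5, which splits free ADP-ribose, measured 39.3 to 46.9 CPM and 60.7 to 77.9 CPM (0.63, SE 0.166, edgeR adjusted p = 0.183, DESeq2 adjusted p = 0.0400), again without overlap. Of all genes tested, 12.1% were lower and 10.6% higher without overlap. Macrod2 gave -0.75 and Nudt16 -0.65, with overlap in both. Parg, the main enzyme that takes poly(ADP-ribose) apart, had 60.8 to 87.2 CPM and 66.8 to 98.6 CPM, and its log2 fold change was 0.06 (SE 0.219, edgeR adjusted p = 0.928). Without the libraries numbered 1, 3 of the 12 were called as lower, Macrod1 (-1.64), Nudt16 (-1.27) and Adprhl2 (-0.51), and 1 as higher, Nudt5 (0.75), where 19.4% and 20.6% of all genes were.

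Of 10 genes for the Parp1 cofactor Hpf1 (listed as 2700029M09Rik) and for single-strand break repair, 0 were called, and the median was 0.17. Tdp1, which frees trapped topoisomerase, measured 8.66 to 13.2 CPM in Ctl MSC, against 15.9 to 18.2 CPM in MSC-TPr (0.65, SE 0.222, edgeR adjusted p = 0.255). Aptx, which repairs abortive ligation ends, measured 28.4 to 31.7 CPM and 19.8 to 22.1 CPM (-0.52, SE 0.157, edgeR adjusted p = 0.215). The groups did not overlap in either gene, while they did for 2700029M09Rik (0.53) and Fen1 (0.41). Xrcc1, the scaffold that binds poly(ADP-ribose) at breaks, lay between 31.1 and 35.9 CPM in all 6 libraries (0.09, SE 0.146). In the libraries numbered 2 and 3, 4 of the 10 were called as higher and 1 as lower, where 20.6% and 19.4% of all genes were.

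Among 4 further Deltex ligases, 3 were tested and 0 called. Dtx3 measured 32.3, 93.7 and 70.4 CPM in Ctl MSC, against 53.9, 26.4 and 25.3 CPM in MSC-TPr (-0.90, SE 0.465, edgeR adjusted p = 0.425), a pattern with low values in Ctl MSC 1 and MSC-TPr 2 and 3 that Dtx3l did not have. Among the libraries numbered 2 and 3, Dtx3 alone of the 3 was called, as lower (edgeR adjusted p = 0.000968), where 19.4% of all genes were. Dtx4 and Dtx2 gave 0.13 and 0.10, and Dtx1 had at most 2 reads in a library. Of 8 genes that supply NAD, the substrate of PARP enzymes, 7 were tested and 0 called. Nampt, the rate-limiting enzyme of NAD salvage, lay between 104 and 136 CPM in all 6 libraries (0.19, SE 0.139, edgeR adjusted p = 0.568). Naprt1 measured 0.588 to 1.15 CPM in Ctl MSC, against 0.0464 to 0.237 CPM in MSC-TPr (edgeR adjusted p = 0.170), and its fitted log2 fold change of -2.50 rests on 1 to 4 reads per MSC-TPr library. Nmnat2, an NAD-forming enzyme best known in axons, measured 0.496 to 3.14 CPM and 3.32 to 7.004 CPM (1.75, SE 0.660, edgeR adjusted p = 0.289), and Nmnat3 and Nadsyn1 gave -0.58 and 0.42. Of the 7, Naprt1 was called as lower and Nmnat2 as higher over the libraries numbered 2 and 3, beside 19.4% and 20.6% of all genes.

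Proliferation genes gave the background for the repair members. All 15 cell division genes and all 14 DNA replication genes had positive log2 fold changes over the 6 libraries, with medians of 0.71 and 0.41, but 0 of either list were called and 0 had groups without overlap. In the libraries numbered 2 and 3 their medians were 3.43 and 1.70, with 15 of 15 and 12 of 14 called as higher, where 20.6% of all genes were. Parp1 (0.39, under the fold threshold) and Parp2 (0.61, called) had the sign of these lists in that choice of libraries, and whether the 2 are linked was not tested.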

How the data were processed

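Polyadenylated RNA was sequenced from Ctl MSC and MSC-TPr (3 libraries each) after a stranded library preparation. The authors aligned the reads to mm10 and deposited counts of reads per gene made with Htseq-count, without normalization. The submitters' processing notes name CASAVA 1.8.2, Trimmomatic 0.35 and TopHat2 2.1.0. The annotation and strand setting of the counting are not given in the sources used here. The 5 summary lines of the table (13.8% to 20.8% of the listed reads per library) were left out.

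The main test used edgeR 4.0.16 under R 4.3.3, with filterByExpr (11974 of 23420 genes kept), TMM, a quasi-likelihood fit on the label alone, and Benjamini-Hochberg adjustment over all genes. Each SE was taken as the absolute log2 fold change over the root of F. DESeq2 1.42.0 (Wald test), RLE and upper quartile normalization, other filters on low counts, each library left out, libraries numbered 2 and 3, and a replicate block were alternatives. Both tools were first tested on simulated data. Depth was 16158756 to 22158887 reads per library. Replicate libraries were not copies of each other (chi-square per gene was 4.97 for the closest pair, Ctl MSC 2 and 3, and about 1 is what read sampling alone gives).

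Coordinates, exon overlaps and exon lengths came from GENCODE M21 (GRCm38, mm10) and promoter windows from RefSeq (GRCm38.p6). The members and lists were chosen with earlier results of these data known. All 10 members are named; from each pathway list the called genes or else up to 4 genes with the largest log2 fold changes are named, and Tnks, Tnks2, Zc3hav1, Parg, Xrcc1, Nampt, Adprhl2, the interferon receptor chains, Jak1, Jak2 and the MSC markers were added for their roles after their values were seen, as were the chromosome 16 neighbours. No test was run over a list. 1 gene of the fixed interferon signalling list is not reported here and was left out of its counts.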

Additional observations from a re-analysis of the deposited data

How the results depend on the processing

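The count of called members was 0 over all 6 libraries and moved with the libraries and the tool: DESeq2 called 3, edgeR on the libraries numbered 2 and 3 called 7, and DESeq2 on those libraries, chosen after seeing the data, called 8. It was 0 under RLE and upper quartile normalization, under both other filters, without a fold threshold and whichever single library was dropped (0.277% to 0.426% of all genes were called under the other normalizations, filters and thresholds). The median of the interferon-inducible members ran from -1.75 to -0.87 with each library left out, the value nearest 0 being that without Ctl MSC 1, and was -0.92 on the libraries numbered 2 and 3 with either tool. The median of the DNA repair members ran from -0.31 to 0.15 with each library left out and was 0.39 on the libraries numbered 2 and 3 with either tool. Parp1 ran from -0.31 to 0.15 and Parp4 from -0.33 to 0.11 with each library left out. Parp1 changed sign to 0.15 without Ctl MSC 1, to 0.09 without MSC-TPr 1 and to 0.39 on the libraries numbered 2 and 3 with either tool, and Parp4 to 0.11 without Ctl MSC 2 and to 0.09 without MSC-TPr 2. Of 140 alternative values of single members, 116 kept direction and side of the threshold, 18 newly passed the threshold and 6 changed sign, and the cause was not tested. The replicate numbers of the labels were not taken as pairs, since same-numbered libraries deviated from their group means with correlations across genes of -0.76, -0.59 and -0.60. With the replicate number as a block, 0 members and 0 of all genes were called (6.48% of all genes had an unadjusted p under 0.05), and the medians were -1.35 for the interferon-inducible and -0.15 for the DNA repair members.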
